A study of Mus musculus with 6 samples.

Results

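The genes described here make, phosphorylate or consume nicotinamide adenine dinucleotide (NAD), and they were chosen by name as Nampt, Nmnat1, Nmnat3, Nmrk1, Nmrk2, Nadk, Nadk2, Nnt, Cd38 and Parp1. These 10 names matched 11 of the 54532 rows of the gene count table, because Nnt has 2 entries, and 10 of the 11 rows were among the 14774 genes with enough counts to be tested. RNA-seq was performed on left ventricles of 3 HINT2 transgenic (TG) and 3 non-transgenic (NTG) mice, all taken 4 weeks after aortic banding (AB), a ligature that loads the heart with pressure. TG mice, of genotype HINT2CTG-Myh6Cre, carried a CAG-driven HINT2 construct silenced by a floxed stop, with an inducible Cre driven by the cardiomyocyte promoter of Myh6, and received tamoxifen at 5 mg/kg/d for 7 days. NTG mice are labelled C57BL/6J, and whether they carried Cre or received tamoxifen is not given, so the transgene, Cre and tamoxifen cannot be told apart in this comparison. The banded mice of the study were males, 8 to 10 weeks old at surgery, and no sham-operated heart was analysed here.

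NAD carries electrons from fuel breakdown to complex I of the respiratory chain, and it is also used up as a substrate by signalling enzymes. Heart muscle rebuilds it mainly by salvage. NAMPT turns nicotinamide into nicotinamide mononucleotide (NMN), the riboside kinases NMRK1 and NMRK2 make NMN from nicotinamide riboside, and NMNAT enzymes complete NAD. NAD kinases add a phosphate to give NADP, the transhydrogenase NNT passes electrons from NADH to NADP in mitochondria, and CD38 and PARP1 break NAD down.

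Total counts per library were between 14863568 and 17581220. Hint2, the gene of the transgene, had 793 to 859 counts in TG libraries and 545 and 559 in NTG 2 and NTG 3, but only 12 in the library labelled NTG 1. NTG 1 also lay at -5.08 on the first principal component (52.3% of the variance), nearer to TG 2 at -10.7 than to NTG 3 at 29.3, so values without it are given beside the results that rest on it. Cardiomyocyte markers (Myh6, Tnnt2, Tnni3, Actc1, Ryr2, Pln) summed to 15600 to 31300 CPM (counts scaled to a common library size by TMM factors), and the skeletal muscle markers Myh1, Myh4, Actn3 and Pvalb to 0.171 to 0.743 CPM. The atrial markers Myl7, Sln and Myl4 measured 19.5, 8.33 and 39.6 CPM in NTG 1. They measured 7.67, 4.09 and 17.4 CPM in TG 2, and 64.4, 24.8 and 77.8 CPM in TG 3. In NTG 2, NTG 3 and TG 1 they were at 0 to 2.67 CPM.

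Nmrk2, the muscle-enriched nicotinamide riboside kinase, was the member that differed most between the groups, and its mean level was 12.1 times as high in NTG as in TG hearts. NTG 2 had the highest level, and without it the log2 fold change went from -3.60 to -2.84, while the lowest NTG library was 1.73 times the highest TG library. Cd38, an NAD-consuming ectoenzyme, was also lower in each TG library than in any NTG library. The mitochondrial NAD kinase Nadk2 had a fitted level 1.45 times as high in TG hearts, with overlapping libraries. A gene was counted as called when its p, adjusted over all genes, was under 0.05 and its fitted log2 fold change was beyond 0.5 either way. With edgeR's quasi-likelihood test none of the 10 members was called, and the background was 0% of the 14774 genes tested. DESeq2, the tool of the study's methods, called Nmrk2 and Cd38 lower at the same thresholds (2 members, background 2.55%) and 0 members higher (background 1.64%).

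**Figure D1:**
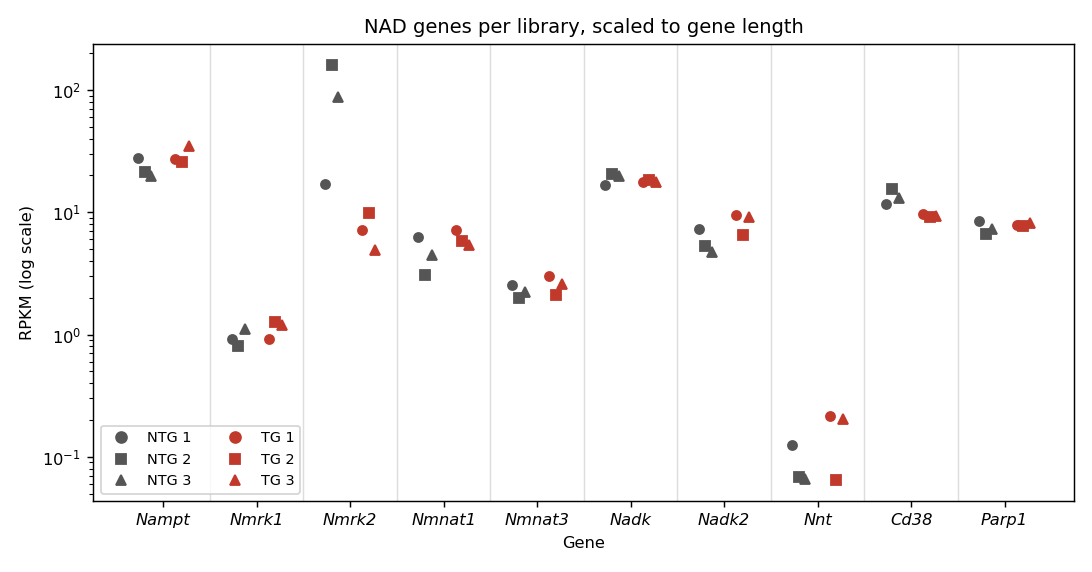
Level of each of the 10 genes in each library, as CPM per kilobase of gene length (RPKM, log axis), with NTG in grey and TG in red and one symbol per replicate number. Nmrk2 spans 4.89 to 161 RPKM, the widest range of the 10, and Nnt lies lowest at 0.0646 to 0.215 RPKM.

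Nmrk2 (ENSMUSG00000004939) is a minus-strand gene of chromosome 10, at 81198170 to 81202051 (GRCm38, as all positions here). It measured 31.5 CPM in NTG 1, 298 CPM in NTG 2 and 162 CPM in NTG 3. In TG 1, TG 2 and TG 3 it measured 13.2, 18.2 and 9.07 CPM. All TG libraries were thus below all NTG libraries, but NTG 1 was much closer to TG 2 than to the other NTG libraries, and the highest NTG library was 9.46 times the lowest. The means were 164 ± 133 CPM (SD, n = 3) in NTG and 13.5 ± 4.57 CPM (SD, n = 3) in TG hearts. The log2 fold change was -3.60 (SE 0.79, 95% interval -5.48 to -1.72), with an adjusted p of 0.196 from edgeR, the smallest adjusted p of the fit, which 629 genes shared. By the size of its fold change Nmrk2 ranked 11 among the 14774 genes.

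The call on Nmrk2 depended on the test and on single libraries. Its adjusted p was 0.00338 with DESeq2 and 0.192 with limma-voom. Leaving out NTG 1 gave a log2 fold change of -4.09 and an adjusted p of 0.021 from edgeR, a setting in which 2.85% of genes were called lower. Without NTG 2, the highest library, it was -2.84 with an adjusted p of 0.452. Over all alternatives the fold change kept its sign, between -4.09 and -2.84, and the adjusted p ran from 1.01e-31 (DESeq2 without NTG 1) to 0.452. Of the 1854 exonic bases of Nmrk2, 270 (14.6%) lie under the antisense gene Atcayos, and whether strand was used in counting is not given. Atcayos had 611, 215 and 409 counts in NTG 1 to NTG 3 and 843, 743 and 600 in TG 1 to TG 3, so within NTG it was lowest where Nmrk2 was highest. The part of antisense reads in the counts of Nmrk2 was not tested.

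The paralogue Nmrk1 (ENSMUSG00000037847, chromosome 19 from 18631950 to 18652194), the broadly expressed riboside kinase, did not show this pattern. It measured 3.07, 2.71 and 3.70 CPM in NTG 1 to NTG 3, and 3.10, 4.21 and 4.01 CPM in TG 1 to TG 3. The groups overlapped, and the log2 fold change was 0.26 (95% interval -0.28 to 0.80, adjusted p = 0.567, edgeR), with 0.16 without NTG 2 and 0.39 without NTG 3 as the extremes and 0.24 without NTG 1. Per length, Nmrk2 was 18.5, 198 and 78.8 times as high as Nmrk1 in NTG 1 to NTG 3, and 7.68, 7.80 and 4.08 times in TG 1 to TG 3. This ratio was lower in each TG library (exact permutation test on its log2 value, two-sided, p = 0.1, the smallest that 3 libraries against 3 allow, and 0.167 after Benjamini-Hochberg adjustment over the 5 ratios of members compared). In all 6 libraries Nmrk2 exceeded Nmrk1.

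**Figure D2:**
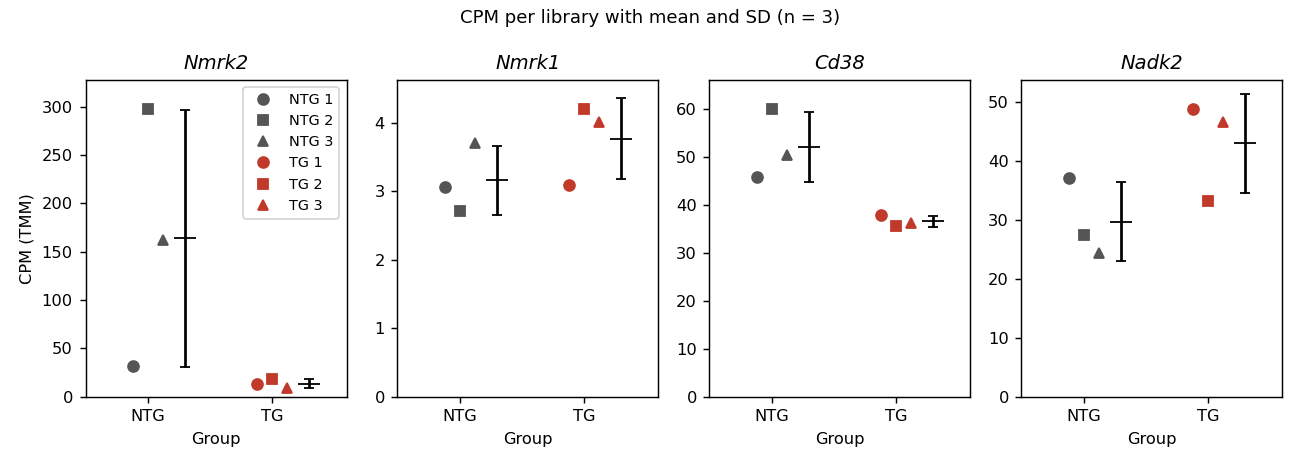
CPM of Nmrk2, Nmrk1, Cd38 and Nadk2 in each library (symbols), with the mean and SD of 3 libraries beside them; each axis starts at 0. Nmrk2 and Cd38 are lower in all 3 TG libraries, NTG 1 is the lowest NTG library for both, and Nmrk1 and Nadk2 overlap between the groups.

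Nampt (ENSMUSG00000020572, chromosome 12 from 32819545 to 32853349), the rate-limiting salvage enzyme, measured 141, 107 and 99.7 CPM in NTG 1 to NTG 3. In TG 1 to TG 3 it measured 137, 130 and 177 CPM. TG 3 was highest, while NTG 1 lay above TG 1 and TG 2. The log2 fold change was 0.35 (95% interval -0.03 to 0.74, adjusted p = 0.298, edgeR), or 0.52 without NTG 1 (adjusted p = 0.074) and 0.21 without TG 3 (adjusted p = 0.607).

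Per length, the transcript ratio of Nmrk2 to Nampt, genes of the salvage routes to NMN, differed among the libraries. Nmrk2 was 0.609, 7.57 and 4.43 times as high as Nampt in NTG 1 to NTG 3, and 0.262, 0.381 and 0.140 times in TG 1 to TG 3. Nampt thus exceeded Nmrk2 in all TG libraries and in NTG 1, and Nmrk2 exceeded Nampt in NTG 2 and NTG 3. The ratio was lower in each TG library, with an exact permutation p of 0.1 (two-sided, adjusted 0.167). Of the summed RPKM of the 10 tested members, Nmrk2 made up 17.2%, 68.1% and 54.6% in NTG 1 to NTG 3, and 5.23% to 11.3% in TG.

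The NMNAT enzymes complete NAD, NMNAT1 in the nucleus, while NMNAT3 has been described in mitochondria. Nmnat1 (ENSMUSG00000028992, chromosome 4 from 149467572 to 149485202) measured 19.0, 9.29 and 13.6 CPM in NTG 1 to NTG 3, and 21.7, 17.8 and 16.5 CPM in TG 1 to TG 3. NTG 2 was the lowest library, and NTG 1 lay within the TG range. Its log2 fold change was 0.42 (95% interval -0.15 to 1.0, adjusted p = 0.382, edgeR), or 0.20 without NTG 2 and 0.71 without NTG 1. Nmnat3 (ENSMUSG00000032456, chromosome 9 from 98287435 to 98420438) ranged from 9.98 to 12.7 CPM in NTG and from 10.6 to 15.0 CPM in TG, with a log2 fold change of 0.18 (95% interval -0.21 to 0.57), or 0.05 without TG 1, 0.10 without NTG 2, 0.27 without NTG 1 and 0.30 without TG 2. The ratio of Nmnat1 to Nmnat3 per length was 1.53 to 2.46 in NTG and 2.11 to 2.76 in TG libraries (exact permutation test, two-sided, p = 0.3, adjusted 0.3).

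The fitted changes of the NAD kinases had opposite signs, and with all libraries neither passed the adjusted threshold with edgeR or DESeq2. Without NTG 1, DESeq2 called Nadk2 (log2 fold change 0.74, adjusted p = 0.00859). Nadk2 (ENSMUSG00000022253, chromosome 15 from 9071260 to 9110891), the mitochondrial enzyme, measured 37.2, 27.4 and 24.4 CPM in NTG 1 to NTG 3, and 48.9, 33.3 and 46.7 CPM in TG 1 to TG 3. NTG 1 lay above TG 2, and the other NTG libraries lay below all TG libraries. Its log2 fold change was 0.54 (95% interval 0.08 to 1.0, unadjusted p = 0.0279, adjusted p = 0.226, edgeR), or 0.73 without NTG 1 (adjusted p = 0.0552) and 0.41 without NTG 3 (adjusted p = 0.439). Nadk (ENSMUSG00000029063, chromosome 4 from 155562378 to 155591001), the cytosolic enzyme, measured 62.8, 77.0 and 74.7 CPM in NTG 1 to NTG 3 and 65.8, 68.4 and 65.8 CPM in TG 1 to TG 3. The TG libraries lay within the NTG range, and the log2 fold change was -0.10 (95% interval -0.33 to 0.13), with -0.19 without NTG 1 and -0.05 without NTG 2 as the extremes. The ratio of Nadk2 to Nadk per length was 0.434, 0.261 and 0.239 in NTG 1 to NTG 3 and 0.544, 0.357 and 0.520 in TG 1 to TG 3 (exact permutation test on its log2 value, two-sided, p = 0.2, adjusted 0.25).

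Nnt was nearly without counts in both groups. The C57BL/6J strain is known for a deletion within this gene, and counts per gene do not show from which exons they came. The entry ENSMUSG00000025453, a minus-strand gene of chromosome 13 (119335448 to 119408997), had 13, 9 and 8 counts in NTG 1 to NTG 3, and 21, 8 and 23 in TG 1 to TG 3. TG 2 equalled the lowest NTG library, while TG 1 and TG 3 were highest, and the exact 95% Poisson intervals of 8 and 23 counts, which cover counting error only, were 3.45 to 15.8 and 14.6 to 34.5. The log2 fold change was 0.89 (95% interval -0.35 to 2.13, adjusted p = 0.394, edgeR), with 0.62 without TG 1 and 1.28 without TG 2 as the extremes and 1.23 without NTG 1.

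The second Nnt entry, ENSMUSG00000116207, was at 0 in all 6 libraries, but it has no exonic base of its own. All of its 3339 exonic bases lie within those of the first entry, where they make up 47.4%. How reads on both entries were counted is not given, and they may have been left out, so the counts of Nnt are no measure of its total transcript. Over the 3698 bases that belong to the first entry alone, its level was 0.123 to 0.410 RPKM, still under that of every other member.

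Cd38 (ENSMUSG00000029084, chromosome 5 from 43868553 to 43912375) measured 45.7, 60.0 and 50.4 CPM in NTG 1 to NTG 3. In TG 1 to TG 3 it measured 37.9, 35.6 and 36.1 CPM. The TG libraries lay close together and below all NTG libraries. The means were 52.0 ± 7.28 CPM (SD, n = 3) in NTG and 36.5 ± 1.23 CPM (SD, n = 3) in TG hearts. The log2 fold change was -0.51 (SE 0.11, 95% interval -0.77 to -0.25), with the smallest unadjusted p of the 10 members, 0.00206, and an adjusted p of 0.196 from edgeR.

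Cd38 sat close to the fold change limit of 0.5, and its call also moved with the setting. DESeq2 gave an adjusted p of 0.0262 and edgeR's likelihood-ratio test 0.0274, where 2.29% of all genes were called lower. Without a low-count filter edgeR gave 0.0318, with 0.432% of genes called lower, and Cd38 was then the one member called. Without NTG 1 the log2 fold change was -0.60 (adjusted p = 0.0294) and without NTG 2 it was -0.40 (adjusted p = 0.406). Per length, Nampt was 2.37, 1.38 and 1.52 times as high as Cd38 in NTG 1 to NTG 3 and 2.78, 2.81 and 3.77 times in TG 1 to TG 3, a ratio that was higher in each TG library (exact permutation test on its log2 value, two-sided, p = 0.1, adjusted 0.167).

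Parp1 (ENSMUSG00000026496, chromosome 1 from 180568924 to 180601254), which builds poly(ADP-ribose) at damaged DNA, measured 44.6, 35.3 and 38.9 CPM in NTG 1 to NTG 3 and 41.8, 41.2 and 43.6 CPM in TG 1 to TG 3. The TG libraries lay within the NTG range. Its log2 fold change was 0.09 (95% interval -0.15 to 0.34, adjusted p = 0.664, edgeR), an interval that lies within the 0.5 threshold on both sides. Leaving out NTG 1 gave 0.18 and leaving out NTG 2 gave 0.01.

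**Figure D3:**
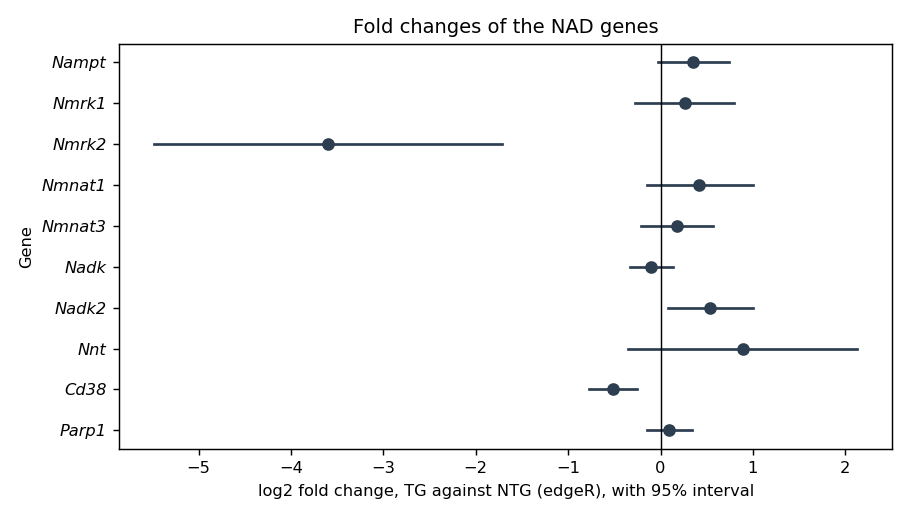
Fitted log2 fold changes of TG against NTG for the 10 genes (points) with 95% intervals (lines). The interval of Nmrk2 runs from -5.48 to -1.72, those of Cd38 and Nadk2 also lie on one side of 0, and the other 7 cross it.

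Across the 10 members, 7 had a fitted level higher in TG and 3 lower, with a median log2 fold change of 0.22 against -0.01 for the 14774 genes. The members' median was 0.13 without NTG 2 and 0.25 without NTG 1. Before adjustment, edgeR's p was under 0.05 for 1 member higher in TG, Nadk2 (background 8.83%), and for 2 lower, Nmrk2 and Cd38 (background 9.76%). NTG and TG libraries were fully separate for these same 2 lower members (background 12.3%) and for 0 members in the other direction (background 11.2%). With DESeq2 and without NTG 1, a setting chosen after the values were seen, Nampt, Nmnat1 and Nadk2 were called higher (3 members, background 6.29%) and Nmrk2 and Cd38 lower (2 members, background 6.15%).

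By median RPKM the order in NTG hearts was Nmrk2 (87.3), Nampt (21.2), Nadk (19.9), Cd38 (13), Parp1 (7.36), Nadk2 (5.35), Nmnat1 (4.48), Nmnat3 (2.25), Nmrk1 (0.918) and Nnt (0.0679). The ranges of Nmrk2 and Nampt, of Nmrk2 and Nadk, of Nampt and Nadk, of Parp1 and Nadk2 and of Nadk2 and Nmnat1 overlapped. In TG hearts Nampt (27.2), Nadk (17.6) and Cd38 (9.28) came first, and Nmrk2 (7.12) came behind Nadk2 (9.13) and Parp1 (7.89). From Cd38 down to Nmnat1 each TG range overlapped the next, so Nmrk2 had no separate place in that order.

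Markers of several other cell types were also higher in NTG libraries. The fibroblast markers Col1a1, Col3a1, Pdgfra, Dcn and Postn summed to 3870 to 9270 CPM in NTG and 1870 to 3260 CPM in TG libraries, and none of them was at 0. Of these 5, 4 did not overlap (background 12.3% of all genes tested). The macrophage markers Cd68, Csf1r, Adgre1, Mrc1 and Cd163 summed to 242 to 516 CPM in NTG and 208 to 251 CPM in TG. All 5 had a higher mean in NTG, and 3 did not overlap (background 12.3%). Postn, a matrix protein of activated fibroblasts, measured 943, 3570 and 2080 CPM in NTG 1 to NTG 3 and 281, 672 and 178 CPM in TG 1 to TG 3. Postn, Col1a1 and Col3a1 had the same order of libraries as Nmrk2, while Dcn and Pdgfra did not. Dcn was higher in TG 3 (887 CPM) than in TG 1 (812 CPM), and Pdgfra was higher in TG 2 (107 CPM) than in NTG 1 (102 CPM).

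The cardiomyocyte markers summed to 15600 to 26800 CPM in NTG and 25400 to 31300 CPM in TG libraries, lowest in NTG 2. All 3 markers of load had a higher mean in NTG. Nppb, a natriuretic peptide, was lower in each TG library (809 to 1230 CPM) than in any NTG library (1230 to 1560 CPM), by little between TG 2 and NTG 1. Skeletal actin Acta1 overlapped, at 4720 to 7030 CPM in NTG and 3430 to 6750 CPM in TG. Nppa, the atrial natriuretic peptide, measured 754, 1390 and 1400 CPM in NTG 1 to NTG 3 and 172, 867 and 268 CPM in TG 1 to TG 3. The part of atrial tissue in these Nppa levels was not tested. Myh7, the slow myosin heavy chain that rises under load, measured 804, 2300 and 2310 CPM in NTG 1 to NTG 3 and 585, 1950 and 384 CPM in TG 1 to TG 3, so TG 2 lay with the high NTG libraries there, unlike for Nmrk2. Erythroid markers summed to 1310 to 2250 CPM in NTG and 762 to 908 CPM in TG libraries, with 4 of 5 not overlapping (background 12.3%). The endothelial, smooth muscle, lymphocyte and adipocyte lists overlapped or were higher in TG, at 1310 to 1550, 124 to 214, 18.9 to 61.1 and 0.0531 to 2.53 CPM over all libraries. In the endothelial list 2 of 4 genes, and in the smooth muscle list 2 of 3, were higher in TG without overlap (background 11.2%). The part of any of these in the levels of Nmrk2 and Cd38 was not tested. In whole ventricles, fewer cells of a type and less RNA per cell cannot be told apart.

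The genes whose pattern over the 6 libraries was nearest to that of Nmrk2, by the mean absolute difference of centred log2 CPM, were Serpina3n (0.259), Anxa8 (0.372), Lox (0.400), Timp1 (0.434) and Sprr1a (0.446). Serpina3n encodes a serine protease inhibitor, Lox a collagen-crosslinking oxidase and Timp1 an inhibitor of matrix metalloproteinases. Their log2 fold changes lay between -3.88 and -2.69. For Nampt the nearest were Rbm12b1 (0.0433), Coa6 (0.0489), 4930429F24Rik (0.0564), Fam129c (0.0574) and AK157302 (0.0588), at 0.579 to 19.2 CPM over these genes and libraries.

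A list of 51 further genes of NAD metabolism was read from the same fit, and 43 were tested. With edgeR 0 were called (background 0%), and with DESeq2 4 were called higher (background 1.64%) and 0 lower (background 2.55%). Before adjustment, edgeR's p was under 0.05 for 9 genes higher (background 8.83%) and 3 lower in TG (background 9.76%), and the median log2 fold change was 0.04. The genes listed for the tryptophan route and its branches were scarce, as 7 of the 9 listed (Tdo2, Ido1, Ido2, Kynu, Haao, Acmsd and Qprt) had too few counts for the test. Naprt and Nadsyn1, which make NAD from nicotinic acid, were both tested and had log2 fold changes of 0.24 and 0.04, running from 0.07 to 0.37 and from -0.07 to 0.14 over the alternatives. Without NTG 1, edgeR called 3 genes of the list, all higher (background 2.67%), namely Sirt3 (0.72, adjusted p = 0.0366), Noct (0.90, adjusted p = 0.0262) and Idh2 (0.99, adjusted p = 0.0348). Without NTG 2, edgeR called none of them, with 0.51 for Sirt3 (adjusted p = 0.428), 0.57 for Noct (adjusted p = 0.446) and 0.50 for Idh2 (adjusted p = 0.443).

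Among the 17 consumers tested, 4 were higher and 1 lower at an unadjusted p under 0.05 (backgrounds 8.83% and 9.76%), and DESeq2 called 2 higher (background 1.64%). Sirt3, the main mitochondrial deacetylase, measured 17.7 ± 2.60 CPM (SD, n = 3) in NTG and 26.9 ± 3.48 CPM (SD, n = 3) in TG hearts without overlap, a log2 fold change of 0.61 (adjusted p = 0.196 with edgeR and 0.0302 with DESeq2). Parp10, a mono-ADP-ribosyltransferase, was at 21.1 ± 2.45 and 33.8 ± 8.86 CPM (SD, n = 3 each), with a log2 fold change of 0.68 (adjusted p = 0.196 with edgeR and 0.0474 with DESeq2). For Parp10 edgeR gave 0.60 without NTG 2 (adjusted p = 0.45) and 0.76 without NTG 1 (adjusted p = 0.0856, or 0.0211 with DESeq2). Parp14, another mono-ADP-ribosyltransferase, had overlapping libraries at 46.4 to 69.4 CPM in NTG and 58.8 to 133 CPM in TG and a log2 fold change of 0.76 (unadjusted p = 0.0395, adjusted p = 0.247, edgeR). That value was 0.43 without TG 3, 0.94 without NTG 1 and 1.01 without TG 1, and DESeq2 without NTG 1 called it (adjusted p = 0.0202). Bst1, the relative of Cd38, had 3.28 to 12.1 CPM in NTG and 1.01 to 3.40 CPM in TG libraries and a log2 fold change of -1.57 (adjusted p = 0.229, edgeR), or -0.90 without NTG 2 and -1.91 without NTG 1 (adjusted p = 0.0833, or 0.00519 with DESeq2).

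In the NADP and NADPH group, 3 of 9 genes were higher and 1 lower at an unadjusted p under 0.05 (backgrounds 8.83% and 9.76%), and DESeq2 called 2 higher (background 1.64%). Noct, a circadian phosphatase of NADP(H), measured 38.6 ± 9.38 CPM in NTG and 62.3 ± 10.6 CPM in TG hearts (SD, n = 3 each), with a log2 fold change of 0.69 (adjusted p = 0.196 with edgeR and 0.0376 with DESeq2). Idh2, the mitochondrial NADP-dependent isocitrate dehydrogenase, had 638 to 1260 CPM in NTG and 1380 to 1710 CPM in TG libraries, a log2 fold change of 0.72 (adjusted p = 0.213 with edgeR and 0.0494 with DESeq2). Pgd, an NADPH source of the cytosolic pentose phosphate pathway, lay the other way at -0.30 (adjusted p = 0.224, edgeR). Its libraries did not overlap, with 41.2 to 48.1 CPM in NTG and 31.3 to 38.6 CPM in TG.

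Of the 6 hydrolase and repair genes, Enpp1, a nucleotide pyrophosphatase of the cell surface, had 65.4 ± 31.1 CPM in NTG and 24.0 ± 15.4 CPM in TG hearts (SD, n = 3 each), and the highest TG library (41.6 CPM) passed the lowest NTG library (41.3 CPM). Its log2 fold change was -1.45 (adjusted p = 0.224, edgeR), or -1.0 without NTG 2, -1.69 without NTG 1 and -2.11 without TG 2, none of them called. Only edgeR with replicate number as a block called Enpp1 (adjusted p = 0.0374), although these numbers did not pair the libraries. Nudt13, a mitochondrial NADH hydrolase, had 23.4 to 26.2 CPM in NTG and 28.3 to 34.9 CPM in TG libraries, with a log2 fold change of 0.34 (adjusted p = 0.211, edgeR). The mitochondrial NAD carrier Slc25a51 was at 0.18 (adjusted p = 0.352, edgeR).

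**Figure D4:**
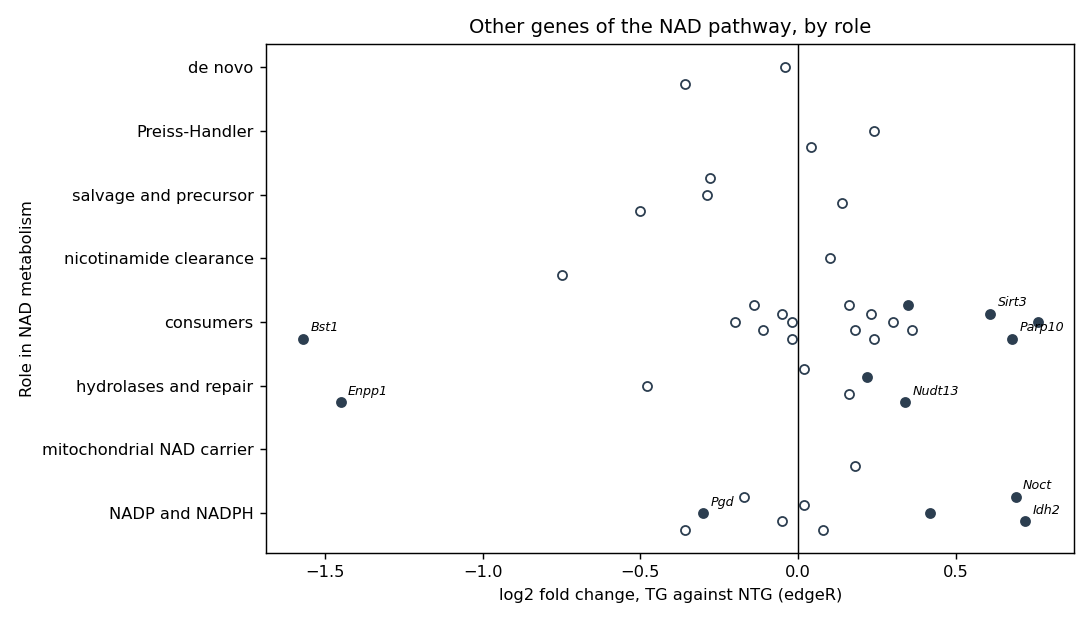
Fitted log2 fold changes of the 43 further NAD genes tested, grouped by role; filled points have an unadjusted p under 0.05 (9 higher and 3 lower in TG), open points do not, and the vertical spread within a role only separates points. Bst1 and Enpp1 lie farthest to the left, Parp14 lies farthest to the right at 0.76, and Sirt3, Parp10, Noct and Idh2 lie between 0.61 and 0.72.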

How the data were processed

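Poly-A RNA from left ventricles was sequenced, 1 library per sample (3 TG, 3 NTG). After read cleaning and alignment, the authors counted reads per gene with featureCounts, and the deposited values are raw counts. The submitters' processing notes name HISAT2 and a human build, but gene identifiers and positions are mouse, and 98.1% of genes have the coordinates of GENCODE mouse release 21 (GRCm38). The strand setting is not given in the sources used here. The gene lengths used for RPKM are the deposited ones, another column of the same table. All 6 sample columns were matched by title, and 0 were left over.

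The main test was that of edgeR 4.0.16 under R 4.3.3 (TMM, filterByExpr, robust quasi-likelihood test), with Benjamini-Hochberg adjustment over 14774 genes and no covariate. Standard errors are the fold change over the square root of F. Calls needed an adjusted p under 0.05 and a change beyond 0.5 (log2) either way. DESeq2 1.42.0, of which 13908 genes had an adjusted p, limma 3.58.1 (voom), other scalings and filters, a replicate block and each library left out were alternatives. The test scripts were checked on simulated data. Named were all members and, of the further list, the 8 genes with the smallest unadjusted p and any called by edgeR or DESeq2; Parp14, Naprt, Nadsyn1, Slc25a51 and the 7 untested genes were named after their values were seen. Nearest genes were named for Nampt and for the member with the largest fold change. Members and lists were chosen with earlier results of these data known. The ratios of members were not part of the planned tests. Those that hold Nmrk2 or Cd38 are no independent evidence, since the libraries were already separate for these genes. Every 2 libraries differed by more than sampling noise. The study's methods give 3 mice per group, and the labels do not tie libraries to animals.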

Additional observations from a re-analysis of the deposited data

How the results depend on the processing

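The fold changes of the 10 members kept their direction in all 169 recomputed values, and 156 kept their side of the threshold. For 1, that of Nnt, DESeq2 gave no adjusted p. The 12 that passed newly were those of Nmrk2 and Cd38 under DESeq2, under the likelihood-ratio test and without NTG 1 (with edgeR and with DESeq2), of Cd38 without a low-count filter, and of Nampt, Nmnat1 and Nadk2 under DESeq2 without NTG 1. Of the 14774 genes, edgeR called 0, while 1305 were higher and 1442 lower at an unadjusted p under 0.05. Without a low-count filter it called 116 higher and 116 lower, with 1 member and 1 gene of the further list, Sirt3. DESeq2 called 228 higher and 355 lower, with 2 members and 4 further genes. The likelihood-ratio test, added after the values were seen, called 206 and 339, with 2 and 2, and DESeq2 without NTG 1, also added then, 896 and 877, with 5 and 8. The replicate block called 84 and 147, with 0 members and 1 further gene, Enpp1; numbers did not pair the libraries, with correlations of 0.0807, 0.173 and -0.252. With each library left out in turn, edgeR called 0 to 404 genes higher and 0 to 432 lower, 0 to 2 members and 0 to 3 further genes, the highest values without NTG 1; without TG 2 it called 3 and 4, and without TG 3 1 and 0. The members' median log2 fold change was 0.14 under scaling by library size, where that of all genes moved to -0.09, and 0.13 without NTG 2 to 0.25 without NTG 1. The cause was not tested. Nnt had at most 23 counts, which limits its precision, and it could not be tested with at least 10 counts in every library.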
